A study of Mus musculus with 6 samples.

Results

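Reads of 5 genes of the ubiquitin system were examined among the 23259 gene names of the table: Ubb, which encodes a chain of ubiquitin units, Uba1, the main ubiquitin-activating enzyme, and the hydrolases Uchl1, Uchl3 and Uchl5. They were chosen by name after earlier read values of these same columns were known, and for each name the row with the most summed total reads was kept. Their levels and ratios are therefore given as a description, with no test. In mouse embryos whose RNA had been labelled with 4-thiouridine and alkylated with iodoacetamide, the study counted for each gene all reads and the reads with a T-to-C mismatch, called T-to-C reads below. The 6 samples form 3 groups of 2, WT zygotes, zygotes of the genotype Pabpn1l-null and WT 2-cell embryos, with 50 embryos pooled per sample. The same protocol text stands for all 6 samples: it speaks of zygotes, collected 26 h after hCG and labelled for 2 h at 200 μM, and gives no separate time for the 2-cell embryos. The sources used here do not say how the null allele was made, whether the mother carried it or which strain was used. Each group has 1 pair of columns in the table, so no difference below has a replicate check.

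Ubiquitin is made as fusions or head-to-tail chains, among them the chain encoded by Ubb and the ribosomal fusion encoded by Rps27a. UBA1 activates it, conjugating enzymes and ligases attach it to proteins, and deubiquitinases release it. The UCH hydrolases are a small class of deubiquitinases: UCHL1 is abundant in neurons and germ cells, UCHL3 is its close relative, UCHL5 works at the proteasome and in the INO80 complex, and BAP1 acts on histone H2A. Maternal proteins are degraded by this system as the egg becomes an embryo.

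The WT and null zygote columns held 3001472 and 1270347 reads and the 2-cell column 4020444, of which 3.03%, 3.86% and 4.54% were T-to-C reads. Null zygotes held more zeros than independent reads would give: among 1295 genes expected from WT zygotes at 3 to 5 reads, 58.3% were at 0, against 2.45%. The expectation uses each gene's own WT count. Clumped reads in either column and real differences between the groups would all add zeros, and their parts were not tested. Every 7 reads were counted as 1 molecule in all intervals, as if clumps gave all these zeros. The intervals are exact 95% intervals and cover counting error only. Levels are in CPM, reads relative to the size of the column, scaled by TMM factors, a ratio divides a level by that in WT zygotes, and levels are not compared between genes because they are not per length. A gene was called higher or lower where the ratio was at least 2-fold and its interval excluded 1. Oocyte markers were present in every column, with 45218, 24502 and 16726 summed reads over 12 of 12 genes. The 9 markers of 2-cell embryos in the table summed to 70, 8 and 13974 reads. Of 10 cumulus and granulosa markers 5 were at 0 in all columns, and the sum of the 10 was 107, 27 and 22 reads in the same order. Most of the zygote reads were of Cyp19a1, with 80, 23 and 0 reads. It was the only such marker with enough reads for calls, and was called lower in 2-cell embryos. Pabpn1l had 47, 4 and 14 reads, and its null-to-WT ratio of 0.192 had an interval from 0.000387 to 2.24. With 7 reads counted as 1 molecule, the counts therefore do not show its loss beyond counting error. Which part of the gene was deleted is not stated in those sources, so these reads may lie outside it. In bulk embryos, fewer embryos or cells of a kind and less RNA per cell cannot be told apart.

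The promoters of Ubb and Uchl1 are shown because these were the members with called differences. Their T-to-C reads differed in opposite directions in 2-cell embryos, but those of Uchl1 were lower together with its reads without the mismatch. A link between these sequences and the reads was not tested. Both windows are RefSeq starts on GRCm38.p6, plus strand, from 250 bases before to 50 after the start, at chr11:62550921-62551220 for Ubb and chr5:66675871-66676170 for Uchl1. Capitals mark CCAAT on either strand, the core that NF-Y binds, and GAANNTTC on either strand, a pair of heat-shock units.

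Ubb: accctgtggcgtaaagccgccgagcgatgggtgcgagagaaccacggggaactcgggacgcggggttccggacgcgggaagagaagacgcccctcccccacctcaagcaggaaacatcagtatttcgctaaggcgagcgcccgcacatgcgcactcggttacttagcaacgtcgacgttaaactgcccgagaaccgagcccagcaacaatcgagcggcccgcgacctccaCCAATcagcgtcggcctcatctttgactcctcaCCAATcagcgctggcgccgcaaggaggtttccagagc

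Uchl1: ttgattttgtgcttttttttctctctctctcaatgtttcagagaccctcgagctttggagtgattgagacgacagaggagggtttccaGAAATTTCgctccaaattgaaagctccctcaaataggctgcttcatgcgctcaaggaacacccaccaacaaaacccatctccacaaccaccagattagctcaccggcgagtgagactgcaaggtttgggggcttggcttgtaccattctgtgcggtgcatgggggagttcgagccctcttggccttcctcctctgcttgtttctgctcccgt

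The Ubb window held 2 CCAAT matches, at positions -20 to -16 and 13 to 17 from the start base, and no GAANNTTC. The Uchl1 window held no CCAAT and 1 GAANNTTC match, at -162 to -155, which reads the same on both strands. Of 32851 promoter windows of this length, 37.4% held CCAAT and 7.86% held GAANNTTC. The second Ubb start, 1 window of Uba1 and the windows of Uchl3 and Uchl5 held neither motif, and the other two, overlapping Uba1 windows shared 1 CCAAT match. TATAAA was in none of the 8 windows of the 5 genes, and in 13.6% of all windows. A match of this kind is a stretch of letters and was not tested for binding.

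Ubb stayed within 2-fold in total reads, while its T-to-C reads were called higher in 2-cell embryos. The gene lies on chromosome 11 at 62551171 to 62553213. Zygotes gave 5597 reads when WT and 3495 when null, and 2-cell embryos gave 6271, or 1872 (1744 to 2006), 2640 (2414 to 2883) and 1619 (1515 to 1729) CPM. The null column was the highest and the 2-cell column the lowest, with intervals that did not overlap, but no ratio reached 2-fold: 1.41 (1.26 to 1.58) in null zygotes and 0.865 (0.785 to 0.953) in 2-cell embryos. With RLE factors in place of TMM the second was 1.04, so its direction depends on the scaling.

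T-to-C reads of Ubb numbered 51 and 25 in WT and null zygotes and 262 in 2-cell embryos. Both zygote columns were low and the 2-cell column was the highest. Its interval, 47.7 to 93.1 CPM, lay above that of WT zygotes, 7.01 to 34.7, and overlapped that of null zygotes, 4.65 to 50.9. The 2-cell ratio was 3.97 (1.77 to 10.3) and was called higher, and it was 2.56 (1.14 to 6.66) with scaling by the T-to-C total of each column. The null ratio of 1.11 (0.219 to 4.46) was not called and turned to 0.910 under the same scaling. As a share of the gene's own reads, which needs no scaling, T-to-C reads were 0.911% (0.375 to 1.84) and 0.715% (0.176 to 1.91) in WT and null zygotes and 4.18% (2.96 to 5.70) in 2-cell embryos. The interval of the 2-cell embryo overlapped neither of the others, and it held the 4.54% of the whole 2-cell column. Of 5553 genes with at least 20 reads in every column, 23.0% had a lower share than Ubb in WT zygotes and 73.5% in 2-cell embryos, while the median share of these genes was 2.06% and 1.96%. Reads of Ubb without the mismatch numbered 5546 in WT zygotes and 6009 in the deeper 2-cell column, a ratio of 0.836 (0.759 to 0.922) that was not called.

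**Figure D1:**
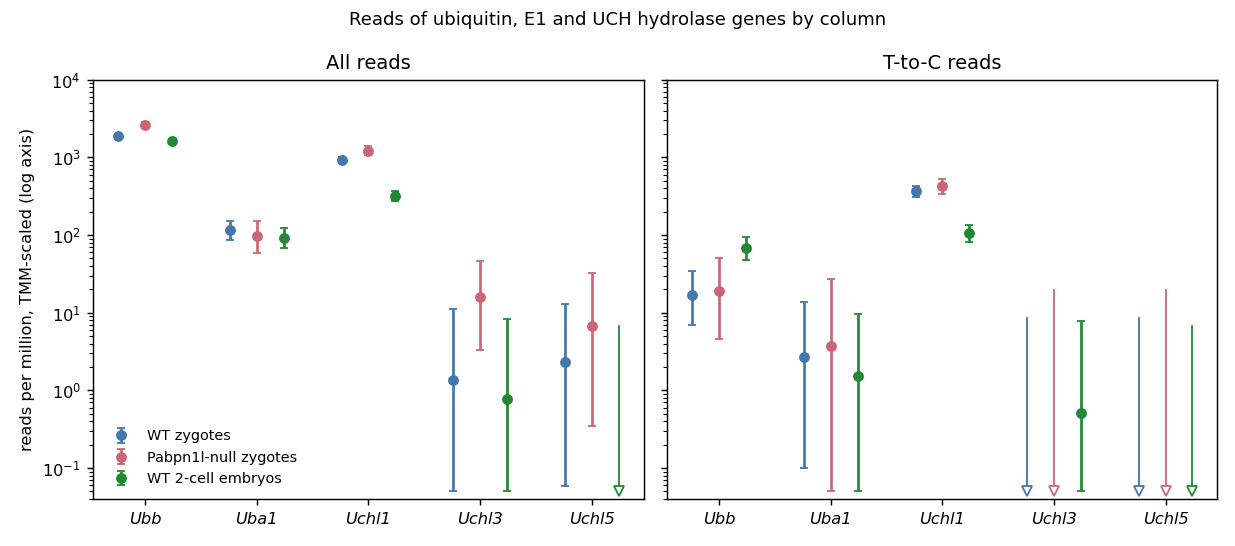
Levels in CPM on a log axis in the 3 columns, all reads on the left and T-to-C reads on the right, with bars for exact Poisson 95% intervals on molecules of 7 reads, drawn down to 0.05. Open triangles mark a count of 0 with a line up to the upper limit of its interval. Ubb stays within 2-fold in all reads and is highest in T-to-C reads in the 2-cell column, and Uchl1 is lowest in 2-cell embryos in both panels.

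Ubb repeats 1 coding unit, so its reads may be shared with pseudogenes and other ubiquitin-coding sequences, and the sources do not say how the authors counted such reads. Rps27a, which encodes ubiquitin fused to a protein of the small ribosomal subunit, had 0 reads in both zygote columns and 31 in 2-cell embryos. A count of 0 allows 21 reads, and Rps27a was not called in either comparison.

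Uba1, on chromosome X at 20658302 to 20683179, was nearly level in all reads. Its reads numbered 346 and 129 in WT and null zygotes and 359 in 2-cell embryos, or 116 (85.7 to 153), 97.5 (58.2 to 153) and 92.7 (69.1 to 122) CPM. The 3 intervals overlap, and the order of the levels is not beyond counting error. The ratios were 0.842 (0.465 to 1.46) and 0.801 (0.531 to 1.21), and the second interval holds no 2-fold difference in either direction. T-to-C reads were 8, 5 and 6, about 1 molecule per column, and do not allow a comparison. The Y-linked copy of the enzyme, listed as Ube1y1, had 0, 0 and 8 reads.

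Uchl1 was the hydrolase with a called difference, lower in 2-cell embryos in all reads and in T-to-C reads. It is on chromosome 5 at 66676121 to 66687234. Its reads numbered 2766 and 1618 in WT and null zygotes and 1228 in 2-cell embryos, or 925 (836 to 1021), 1222 (1070 to 1391) and 317 (272 to 368) CPM. The 2 zygote columns were high and the 2-cell column low, with no overlap. The 2-cell ratio was 0.343 (0.285 to 0.410), called lower, and 0.411 (0.342 to 0.493) with RLE factors. The null ratio was 1.32 (1.12 to 1.56), above 1 by its interval and under 2-fold. The median ratios of the 12 oocyte markers lay on the same sides of 1, at 0.225 in 2-cell embryos and 2.08 in null zygotes. Of these markers 7 (58.3%) were called lower in 2-cell embryos, beside 17.9% of all genes. In null zygotes 4 (33.3%) were called higher, beside 2.34% of all genes. None was called the other way in total reads. Without a call, Bmp15 (8844 and 7334 CPM in WT and null zygotes), Nlrp5, Ooep and Btg4 were lower in null zygotes. Zp1 was higher in 2-cell embryos, also without a call. Of the 9 markers with enough T-to-C reads 5 (55.6%) were lower and 1 (11.1%) higher in 2-cell embryos, beside 2.97% and 7.56% of all genes. The part of the oocyte markers in the values of Uchl1 was not tested.

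T-to-C reads of Uchl1 were 1099, 561 and 409. Only 2 genes had more T-to-C reads in WT zygotes, where Uchl1 held 1.21% of all T-to-C reads and ranked at place 134 in total reads. It ranked at 4 in null zygotes and at 40 in 2-cell embryos by T-to-C reads. These ranks are of read counts, not of levels per length, and describe the libraries alone. The 2-cell ratio of T-to-C reads was 0.287 (0.209 to 0.390), called lower, and that of reads without a mismatch was 0.379 (0.301 to 0.475), so both kinds of read were lower together. The null ratio of T-to-C reads was 1.15 (0.870 to 1.52) and became 0.948 when scaled by T-to-C totals.

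The T-to-C share of Uchl1 was high in every column: 39.7% (34.9 to 44.7) and 34.7% (28.6 to 41.2) in WT and null zygotes and 33.3% (26.4 to 40.8) in 2-cell embryos. These intervals overlap, although with each read counted as 1 molecule the WT zygote interval, 37.9 to 41.6, lay above the others, 32.4 to 37.0 and 30.7 to 36.0. A share of 25% was set, after the values were seen, to find genes of this kind. Of the 5553 genes, 31 (0.558%) were at or above it in all 3 columns, of which RefSeq annotates 15 as protein coding and 9 as pseudogenes, with 2 of another class and 5 not matched. They include the retrogenes G6pd2 (59.1%, 62.5% and 62.5%) and Acot10 (81.3%, 68.5% and 85.4%), and also Lrrc58 (31.7%, 30.4% and 28.6%) and Sap30 (28.0%, 25.6% and 26.3%). Without an unlabelled control, newly made RNA, fixed differences from the reference sequence and reads placed from another copy cannot be told apart in such a share.

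Uchl1 is also a marker of neurons. Of 7 neuronal markers Tubb3 had 3030, 1625 and 738 reads, and the other 6 had at most 10 reads in any column.

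**Figure D2:**
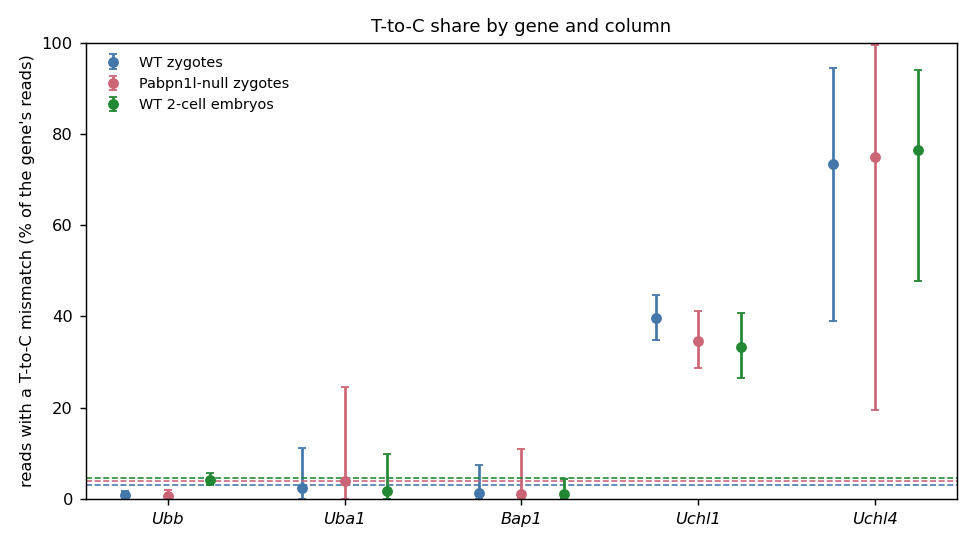
T-to-C reads as a percentage of each gene's reads in the 3 columns, with exact binomial 95% intervals on molecules of 7 reads. Dashed lines give the share of the whole column (3.03%, 3.86% and 4.54%). Ubb is near the bottom of the axis throughout and highest in 2-cell embryos, at 4.18%, near the 4.54% of that whole column. Uchl1 stays between 33.3% and 39.7% and Uchl4 between 73.3% and 76.5%.

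Uchl3 and Uchl5 were near the limit of detection. Uchl3, on chromosome 14 at 101653892 to 101696125, had 4 and 21 reads in WT and null zygotes and 3 in 2-cell embryos, or at most 3 molecules. The null column was the highest, and the ratio of 11.9 had an interval from 0.660 to 6670 and was not called. With 1 read counted as 1 molecule it was called higher (4.00 to 47.5), and so it was when clumps were assumed in the null column alone (1.74 to 70.1). Its T-to-C reads were 0, 0 and 2.

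Uchl5, on chromosome 1 at 143777234 to 143807466, had 7, 9 and 0 reads, none of them T-to-C reads. A count of 0 allows 3 molecules, or 5.42 CPM in 2-cell embryos, by the one-sided limit used for calls, and the two-sided interval drawn in the plot of levels reaches 6.67 CPM. Both are above the 2.34 CPM of WT zygotes. A decrease of Uchl5 in 2-cell embryos was therefore not detectable at this depth. Its null ratio of 2.90 had an interval from 0.0704 to 203. The 16 reads of Uchl5 in all were under the minimum of 20 for calls.

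The remaining UCH genes, Bap1 and Uchl4, were not called in either comparison. Bap1 had 488, 273 and 1102 reads, a 2-cell ratio of 1.74 (1.31 to 2.35) that was not called, and T-to-C shares of 1.23%, 1.10% and 1.18%. Uchl4, a close mouse relative of Uchl3, had 75, 28 and 102 reads with ratios of 0.843 (0.195 to 2.87) and 1.05 (0.445 to 2.56). Of its reads 73.3% (39.1 to 94.4), 75.0% (19.4 to 99.4) and 76.5% (47.7 to 94.1) were T-to-C reads, and it is among the 31 genes above. Reads of Uchl3 and Uchl4 may be shared, so both are uncertain.

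The authors' deposited table also gives a Positive or Negative call per gene and column. In it Ubb and Uchl1 are Positive in all 3 columns and Uba1, Uchl3 and Uchl5 Negative in all 3. In the authors' deposited table no Negative gene has more than 30 T-to-C reads in either WT column or more than 15 in null zygotes. Ubb, with 25 T-to-C reads and a share of 0.715% in null zygotes, is above that number.

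Of the 5 genes 4 had enough reads for calls in total reads. None was called in null zygotes, where 2.34% of 11262 genes were higher and 2.15% lower, and 1, Uchl1, was lower in 2-cell embryos, where 18.4% of genes were higher and 17.9% of genes lower. Enough T-to-C reads were found for 3. None was called in null zygotes, where 0.708% of 4376 genes were higher and 0.0686% lower. In 2-cell embryos Ubb was higher and Uchl1 lower, against 7.56% and 2.97%. Because the genes were chosen with these columns known, nothing is read from these counts. With RLE factors the share of calls that were higher went from 50.6% to 60.8% in total reads of 2-cell embryos, as the median log2 ratio of all genes went from 0.04 to 0.31. With T-to-C reads scaled by their own totals it went from 71.8% to 44.9% at the 2-cell stage and from 91.2% to 63.6% in null zygotes.

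The other genes of the ubiquitin system were called in 2-cell embryos at shares near those of all genes. Of the genes listed here 140 were in the table, and 126 had enough reads. In 2-cell embryos 25 (19.8%) were higher and 22 (17.5%) lower, beside 18.4% and 17.9% of all genes, with a median ratio of 1.11 beside 1.03. In null zygotes 2 (1.59%) were higher and 4 (3.17%) lower, beside 2.34% and 2.15%, with a median of 0.953 beside 0.865. Of 68 with enough T-to-C reads 6 (8.82%) were higher and 3 (4.41%) lower in 2-cell embryos, beside 7.56% and 2.97% of all genes. None was called in null zygotes, where 0.708% of all genes were higher and 0.0686% lower.

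**Figure D3:**
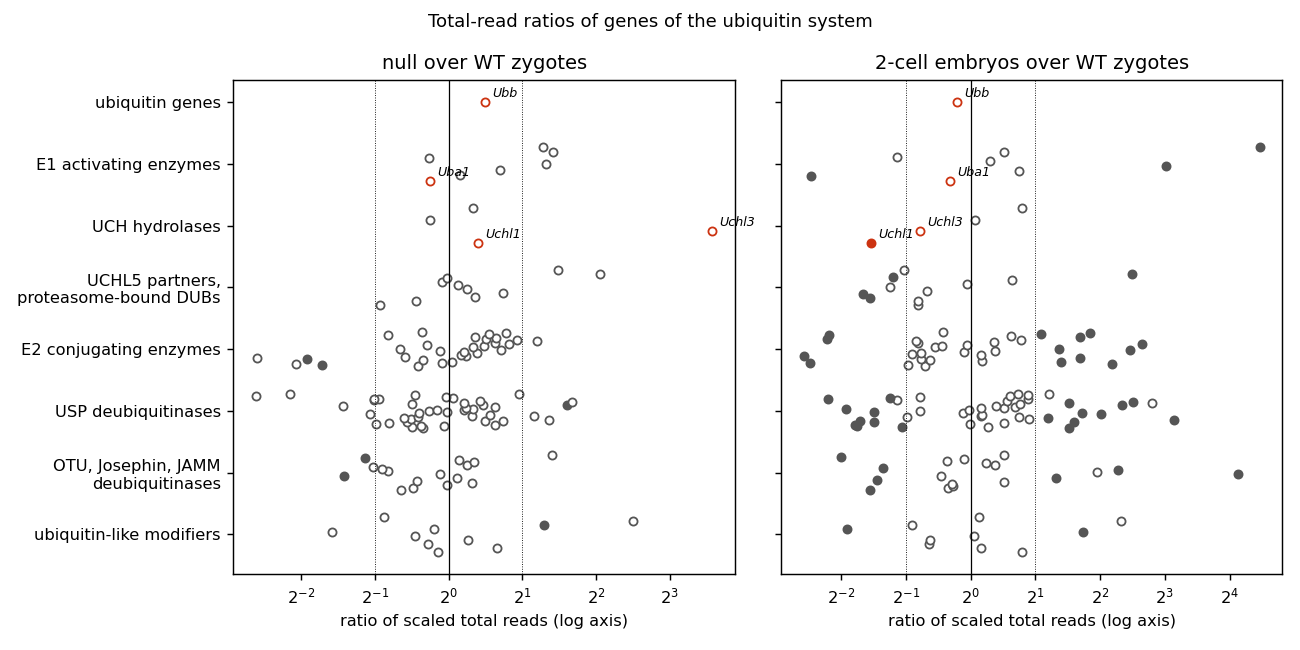
Ratios of total reads, on a log axis, of genes with enough reads and at least 1 read in both columns, by list, for null over WT zygotes (left) and 2-cell embryos over WT zygotes (right). Filled points were called, red points are Ubb, Uba1, Uchl1 and Uchl3, and dotted lines mark 2-fold. Of the red points Uchl1 is filled, in the right panel.

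Among 8 activating enzymes of ubiquitin and its relatives with enough reads, 2 were higher and 1 lower in 2-cell embryos. The shares of all genes were 18.4% and 17.9%. None of the 8 was called in null zygotes, where 2.34% of all genes were higher and 2.15% lower. Mocs3, which activates the modifier URM1, had 17 reads in zygotes of the WT and 487 in 2-cell embryos (ratio 22.1, 6.54 to 141). Sae1, a subunit of the SUMO-activating enzyme, had 30 and 315 (8.11, 3.04 to 29.3). Uba6, the second enzyme that activates ubiquitin, had 188 and 44 (0.181, 0.0626 to 0.440), where Uba1 was not called.

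Of the 11 genes of UCHL5 partners and proteasome-bound deubiquitinases 1 (9.09%) was higher and 3 (27.3%) lower in 2-cell embryos. The shares of all genes were 18.4% and 17.9%. None was called in null zygotes, where 2.34% of all genes were higher and 2.15% lower. Nfrkb, which binds UCHL5 in the INO80 complex, had 366 reads in the WT zygote column and 149 in the 2-cell column (0.314, 0.180 to 0.529). Usp14, a deubiquitinase of the proteasome, had 274 and 120 (0.338, 0.180 to 0.611), and the INO80 subunit gene Ino80e had a ratio of 0.436 (0.225 to 0.818). Mcrs1, also of that complex, was higher at 5.62 (1.54 to 35.3). Adrm1, the proteasome receptor of UCHL5, had 30, 7 and 22 reads and was not called.

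Conjugating enzymes were called in both directions. Of 32 with enough reads 9 (28.1%) were higher and 4 (12.5%) lower in 2-cell embryos, beside 18.4% and 17.9% of all genes. Ube2o, with 221 reads in the WT zygote column, had 1788 in the 2-cell column (6.25, 4.31 to 9.35) and 2 and 82 T-to-C reads, called higher as well. Ube2j2, of the endoplasmic reticulum, and Ube2c, which works with the anaphase-promoting complex, had ratios of 5.48 (2.34 to 15.5) and 4.55 (1.24 to 27.2). Ube2f, Ube2d1 and Ube2t were lower, between 0.167 and 0.214. In null zygotes 2 (6.25%) were lower, beside 2.15% of all genes: Ube2e1 (0.265, 0.0456 to 0.918) and Ube2b (0.303, 0.0988 to 0.745). In T-to-C reads of 2-cell embryos Ube2d2 was higher (3.35, 1.18 to 12.2) and Ube2w lower (0.224, 0.0329 to 0.965).

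The list of USP deubiquitinases leaves out the Usp17-like genes, which were counted among the markers of 2-cell embryos. One of these, Dub1a, had 5, 0 and 2940 reads and was called higher in 2-cell embryos. Of the 44 listed USP genes with enough reads 9 (20.5%) were higher in 2-cell embryos and 9 lower, shares near those of all genes. Usp12 (8.81, 3.27 to 32.7), Usp42 (5.70, 2.20 to 19.0) and Usp36 (5.03, 2.27 to 13.1) were higher, and Usp36, of the nucleolus, was also higher in null zygotes (3.03, 1.03 to 9.36). Usp46 was lower, with 8051 and 1858 reads in WT and null zygotes and 2251 in 2-cell embryos, a 2-cell ratio of 0.216 (0.190 to 0.244), and was lower as well in T-to-C reads (171 and 31). Usp30, of mitochondria, and Usp5, which takes apart free ubiquitin chains, had ratios of 0.263 and 0.288. In T-to-C reads Usp1, Usp38 and Usp37 were higher, at 8.11 (1.01 to 599), 5.74 (1.73 to 29.9) and 5.53 (1.56 to 32.5).

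Of 19 OTU, Josephin and JAMM genes 3 (15.8%) were higher and 4 (21.1%) lower in 2-cell embryos, beside 18.4% and 17.9% of all genes. In null zygotes 2 (10.5%) were lower, beside 2.15% of all genes. Otud6b was lower in null zygotes (0.375, 0.129 to 0.898) and higher in 2-cell embryos (2.49, 1.70 to 3.73). The histone H2A deubiquitinase gene Mysm1 was lower in both (0.455, 0.182 to 0.993, and 0.249, 0.121 to 0.480). Yod1 and Zranb1 were higher in 2-cell embryos and Otub1 and Otud5 lower. Of 10 ubiquitin-like modifiers 1, Fau, was higher in null zygotes (2.44, 1.11 to 5.37), beside 2.34% of all genes. In 2-cell embryos 1 was higher, Urm1 (3.32, 1.06 to 14.0), and 1 lower, Atg12, of autophagy (0.265, 0.204 to 0.341). The shares of all genes there were 18.4% and 17.9%. In T-to-C reads of 2-cell embryos Sumo3 was lower (0.247, 0.0524 to 0.869), 1 of 5 with enough T-to-C reads, beside 2.97% of all genes.

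Likeness to the 5 genes was taken as the Euclidean distance over 4 log2 ratios (null and 2-cell over WT zygotes, in total and T-to-C reads) from the 3 columns, among 5048 or 5049 named genes with at least 200 reads. Nearest to Uchl1 were Fam123b (distance 0.39), the estrogen receptor gene Esr2 (0.43) and Gyg (0.46), the glycogen primer gene, with 4261, 2077 and 1945 reads. Their T-to-C shares were not like that of Uchl1: Gyg had 50, 34 and 15 T-to-C reads. Nearest to Uba1 were the kinase gene Map2k1 (0.28), Oog1 (0.30) and Trim61 (0.31), and nearest to Ubb were Sipa1l2 (0.43), Zfp384 (0.46) and Golt1b (0.49), each with 0 or 1 T-to-C read in WT zygotes. The neighbours of Uchl3 (Sgsm2, Mta1 and Puf60, from 0.73 to 1.08) and of Uchl5 (Cog6, Dis3l and Tarbp2, from 0.04 to 0.38) rest on 28 and 16 reads of those genes. Distances over 3 columns are a description of these libraries.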

How the data were processed

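Per the labels, RNA of 6 samples was depleted of ribosomal RNA after labelling and alkylation. The build is mm10, per the submitters' processing notes. Aligner, counter, annotation, mismatch rule, duplicate handling and any pooling of both samples of a group: not given in the sources used here. For each gene and group the authors deposited a raw read count and a raw T-to-C read count, not normalized, and a call of Positive or Negative, whose rule is not stated. Of 30493 rows, 47 named by a date were left out, and 6131 repeats of a row were dropped. 928 genes had several distinct rows, of which that with the largest summed count was used. The planned edgeR test for a column per sample, the replicate block and omission of replicates could not be run.

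From these counts, TMM factors (0.996, 1.04 and 0.963) came from edgeR 4.0.16 on genes with at least 20 reads over the 3 columns, which were applied to T-to-C reads too. Ratios have exact conditional binomial (Clopper-Pearson) 95% intervals on molecules of 7 reads, computed with scipy 1.17.1. Genes with at least 20 reads in total, or 10 for T-to-C reads, were eligible for calls. Zeros of the null column gave 7.21 reads per molecule. A count of 0 allows 3 molecules, or 21 reads. Distances add 0.5 molecule, scaled to column size. Members, lists, the clump size and the call rule were chosen with earlier results of these data known. Some listed genes are not reported here and were left out of the list counts. Named genes are the members, the other ubiquitin and UCH genes reported, Pabpn1l, up to 3 called genes per list, direction and comparison, and the 3 nearest genes per member. The genes given for their T-to-C shares, Ube1y1, Adrm1, Dub1a, Tubb3, Cyp19a1 and the single oocyte markers were named after their values were seen. Coordinates and promoters are RefSeq on GRCm38.p6, the assembly of mm10. Alternatives were RLE factors, column totals, no filter, other clump sizes, summed rows and scaling by T-to-C totals.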

Additional observations from a re-analysis of the deposited data

How the results depend on the processing

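No paired analysis was possible because each group has a single pair of count columns in the table, with no replicate, and leaving out replicates could not be run for the same reason. Called genes numbered 505 (null) and 4088 (2-cell) in total reads and 34 and 461 in T-to-C reads. With 1 read counted as 1 molecule they numbered 2813, 6689, 1111 and 2324, and with clumps in the null column alone, an alternative chosen after seeing the data, 833 and 168 in null zygotes. Scaled by T-to-C totals, 22 were called in T-to-C reads of null zygotes. With RLE factors, column totals, no filter and summed rows every count was within 1.5 times. Ratios of the members can change through the scaling, and of 34 such values 31 lay inside the interval of the ratio reported. The 3 others were Ubb (1.04) and Uchl1 (0.411) in total reads of 2-cell embryos with RLE factors and Uchl1 in T-to-C reads (0.185) scaled by T-to-C totals. No call of a member changed with the scaling. Other clump sizes alter intervals alone, and 2 of 21 calls differed, both for Uchl3 in null zygotes. The clump size was estimated from zeros of the null column against WT zygote counts, so intervals, those of the WT columns among them, may be too wide. Depth limits Uchl3, Uchl5 and the T-to-C reads of Uba1.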
